A study of Mus musculus with 12 samples.

Results

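NMDA receptors are glutamate-gated ion channels, and the 7 mouse genes that encode their subunits, Grin1, Grin2a, Grin2b, Grin2c, Grin2d, Grin3a and Grin3b, were followed by gene symbol among the 55359 genes counted in 12 libraries of newborn thalamus. All 7 were found in the files. The libraries came from the ventroposterior medial nucleus (VPM), the thalamic relay for touch on the face, at postnatal day 0. Each was made from tissue pooled from 5 brains, so a replicate is a pool and the p values measure the spread between pools. The 3 groups had 4 libraries each. embWPC ALBSF is the territory with upper lip input in pups whose treatment the labels name embWPC and do not spell out. Ctrl PMBSF is the territory with whisker pad input in control pups, and Ctrl ALBSF is the upper lip territory in control pups. Strain, genotype and sex are not given in the sources used here, and no embWPC library of the whisker pad territory was analysed here.

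A working NMDA receptor needs the GluN1 subunit, the product of Grin1, which binds glycine or D-serine. GluN2 subunits, from Grin2a to Grin2d, bind glutamate and set how long the channel stays open. GluN3 subunits, from Grin3a and Grin3b, bind glycine, and channels that hold them pass less calcium and are blocked less by magnesium. In rodent brain, Grin2b and Grin2d are known as subunits of the embryonic and newborn period, Grin2a and Grin2c as subunits that increase after birth, and Grin3a as a gene of the early postnatal brain. In the whisker pathway, NMDA receptors are known for their part in shaping whisker-related patterns of neurons and axons.

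The family shares one stretch of the channel pore, at the end of the third membrane segment, and the 24 bases that encode it are shown for 6 of the genes because they let them be compared base by base, and no pair of these is identical even there. Capitals mark bases unlike those of Grin1, and each sequence is read 5′ to 3′ on the coding strand of GRCm39.
Grin1: tcctacactgccaacctggcagcc
Grin2a: AGTtacacAgccaacctggcTgcc
Grin2c: AGctacacGgccaaTctggcagcc
Grin2d: AGctaTacAgccaaTctggcTgcc
Grin3a: AcAtacacAgcGaacTtggcTgcT
Grin3b: AGTtacacAgccaacctggcagcT
They lie at chr2:25187214-25187237 in exon 14 of 20 of Grin1 and at chr16:9471314-9471337 in exon 9 of 13 of Grin2a, both on the minus strand. Those of Grin2c lie at chr11:115144578-115144601 in exon 11 of 15, and those of Grin2d at chr7:45503706-45503729 in exon 8 of 12, also on the minus strand. Those of Grin3a lie at chr4:49770473-49770496 in exon 3 of 9 on the minus strand, and those of Grin3b at chr10:79810470-79810493 in exon 3 of 9 on the plus strand. The encoded residues are the same in all of these 6 but Grin3a. Across their 15 pairs these bases differed by 2 to 8, and 0 pairs were identical.

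The library totals were 31712820 to 33702453 counts in embWPC ALBSF, 31921767 to 34512840 in Ctrl PMBSF and 28457046 to 31850727 in Ctrl ALBSF. Levels are given as CPM, which are counts divided by library size and scaled to a common size, with the library sizes scaled by TMM. The 14 relay neuron markers of the thalamus, among them Slc17a6, Lef1, Tcf7l2 and Gbx2, summed to 2805 to 3234 CPM in embWPC ALBSF, 2565 to 2905 in Ctrl PMBSF and 2829 to 3297 in Ctrl ALBSF. Astrocyte and radial glia markers summed to 5541 to 10540, 6452 to 8161 and 8002 to 11716 CPM in the same groups. In none of the 11 marker lists was a gene at 0 in every library.

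In all 12 libraries Grin3a, Grin1, Grin2b and Grin2d were the abundant subunit mRNAs, and Grin2c, Grin2a and Grin3b were scarce. Divided by the kilobases of all annotated exons of the gene, Grin3a ran from 3.37 to 8.85 CPM per kb and was the highest member in 12 of 12 libraries. Grin2b followed with 2.28 to 3.70, Grin2d with 2.32 to 3.66 and Grin1 with 2.02 to 3.16 CPM per kb. The order of these 3 changed from library to library. Grin2b exceeded Grin2d in 7 and Grin1 in 8 of the 12, and Grin2d exceeded Grin1 in 9. Grin2c had 0.0267 to 0.125, Grin2a 0.0111 to 0.0424 and Grin3b 0 to 0.0747 CPM per kb, and these 3 were the lowest in every library. The order of the 4 abundant members depends on the length used. On the length of the longest transcript or of the canonical one, Grin1 was above both Grin2b and Grin2d in 12 of 12 libraries, and on the canonical one Grin2d was above Grin2b in 12 of 12. On the canonical length Grin1 was also above Grin3a in 3 libraries, which were embWPC ALBSF 1 and 4 and Ctrl PMBSF 2.

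The first question was which subunits set Ctrl PMBSF apart from Ctrl ALBSF, the control territories for whisker pad and for upper lip. Most subunit mRNAs had lower mean values in the whisker pad territory. Grin3a averaged 56.1 ± 11.7 CPM in Ctrl PMBSF and 92.7 ± 17.5 in Ctrl ALBSF, and Grin2d averaged 19.7 ± 1.65 CPM in Ctrl PMBSF and 25.4 ± 2.33 in Ctrl ALBSF (SD, n = 4 each). The fit over all 12 libraries called 0 of the 6 members tested at an adjusted p under 0.05 (edgeR's quasi-likelihood test, Benjamini-Hochberg over 17501 genes), where 1.62% of all genes were called. Of these 6, 3 had an unadjusted (raw) p under 0.05, as did 2068 or 11.8% of all genes. The smallest p among the members was that of Grin2d, the 1 member that DESeq2 and voom with quality weights (voom below) called. The labels do not say that the replicate numbers pair the control pools. The pairing was inferred from these data, in which same-numbered control libraries deviated together over genes (r = 0.198 to 0.396). With the number as a block the smallest p was that of Grin3a, and 2 members, Grin3a and Grin2d, were called as lower in Ctrl PMBSF, where 2.61% of the genes tested were called in that direction and 5.04% in either.

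**Figure D1:**
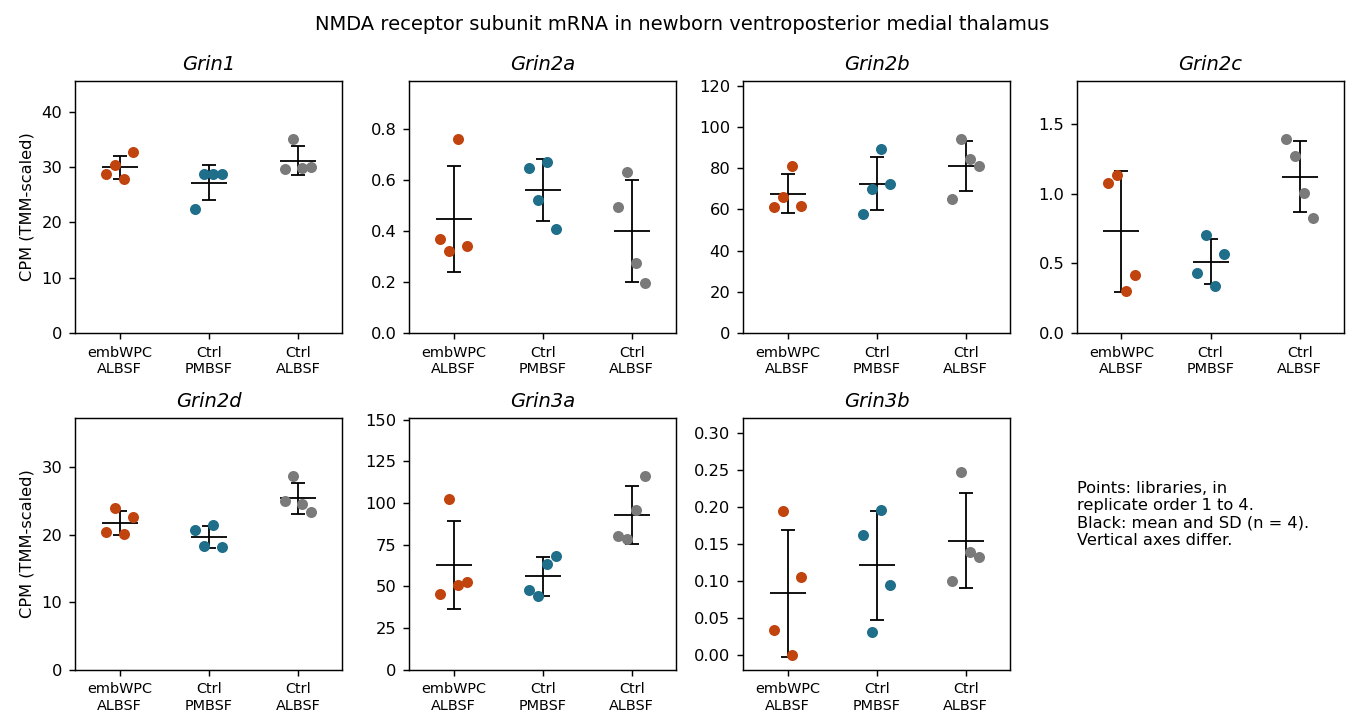
CPM on TMM-scaled library sizes of each member, with 1 point per library in the order of the replicate numbers and the mean and SD of each group in black (n = 4). The Ctrl PMBSF points lie below all Ctrl ALBSF points for Grin1, Grin2c, Grin2d and Grin3a, and embWPC ALBSF 2 stands above the other embWPC libraries for Grin3a.

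Grin1, on chromosome 2 (GRCm39, 25181186 to 25209226, minus strand, ENSMUSG00000026959), encodes the subunit that all NMDA receptors hold. It had 22.4, 28.8, 28.8 and 28.7 CPM in Ctrl PMBSF 1 to 4, against 29.7, 35.0, 29.8 and 29.9 CPM in Ctrl ALBSF 1 to 4. All 4 whisker pad libraries lay below all 4 upper lip libraries, and 3 of them, at 28.7 to 28.8 CPM, lay just under the lowest upper lip library. The log2 difference was -0.19 ± 0.09 (SE) with an adjusted p of 0.450 by edgeR. In the paired edgeR fit it was -0.20 ± 0.07 with an adjusted p of 0.165. Grin1 was lower in 4 of 4 pairs, as were 2195 of the 17000 genes tested. On library totals without TMM, Grin1 was not lower in every pair and the territories overlapped. Exons of Grin1 share 1307 bases with those of its antisense gene Grin1os, and the strand setting of the counting is not given in the sources used here, so reads of the overlap cannot be assigned to either.

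Among the glutamate-binding subunits, Grin2b is the main partner of Grin1 in newborn forebrain and lies on chromosome 6 (135690231 to 136150548, minus strand, ENSMUSG00000030209). It had 58.0, 70.1, 89.3 and 72.4 CPM in Ctrl PMBSF, against 65.3, 94.1, 84.4 and 80.9 CPM in Ctrl ALBSF, in the order of the replicate numbers. The groups overlapped. The log2 difference was -0.16 ± 0.13 (SE) with an adjusted p of 0.703, and the paired value of -0.17 ± 0.08 had an adjusted p of 0.250 (edgeR).

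Grin2d encodes a subunit with slow closing and weak magnesium block, and lies on chromosome 7 (45481304 to 45527802, minus strand, ENSMUSG00000002771). It had 20.7, 18.3, 21.5 and 18.2 CPM in Ctrl PMBSF, against 25.1, 28.7, 24.6 and 23.3 CPM in Ctrl ALBSF. All whisker pad libraries were below all upper lip libraries in TMM-scaled CPM, though not on library totals without TMM. The log2 difference of -0.37 ± 0.09 (SE) had a raw p of 0.00130 and, with edgeR, an adjusted p of 0.0702. It was called by DESeq2 (adjusted p = 0.0167) and by voom (adjusted p = 0.0265). With edgeR but without TMM it was -0.27 with an adjusted p of 0.443. The edgeR adjusted p was 0.0942 on the 2 groups alone and 0.0806 without the filter on low counts. In the paired fit Grin2d fell by 0.37 ± 0.08 on the log2 scale with an adjusted p of 0.0263. The ratio of Ctrl PMBSF to Ctrl ALBSF within a pair was 0.826, 0.638, 0.874 and 0.783. The paired call was lost without the pools numbered 2 (adjusted p = 0.105), 3 (0.0541) or 4 (0.138), and without TMM scaling (0.194). Exons of Grin2d share 643 bases with Gm45441, a long noncoding RNA on the other strand.

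Grin2c, a subunit best known from the cerebellum, lies on chromosome 11 (115139992 to 115158525, minus strand, ENSMUSG00000020734) and was counted at 9 to 42 reads per library. It had 0.432, 0.706, 0.336 and 0.565 CPM in Ctrl PMBSF, against 1.39, 1.27, 1.00 and 0.827 CPM in Ctrl ALBSF. The groups did not overlap, and the mean level was 0.510 ± 0.161 CPM in Ctrl PMBSF and 1.12 ± 0.254 CPM in Ctrl ALBSF (SD). The log2 difference of -1.14 ± 0.40 (SE) had an adjusted p of 0.232 with edgeR. The paired value was -1.15 ± 0.30 with an adjusted p of 0.0503 by edgeR. Grin2c was lower in 4 of 4 pairs, as were 2195 of the 17000 genes tested. Of 4 other settings of the paired fit, 2 called it: no TMM scaling (adjusted p = 0.0360) and no filter on low counts (adjusted p = 0.00525). The highest adjusted p of these 4 settings was 0.124. With 1 pair left out, the paired edgeR fit called it in 0 of 4 cases, at adjusted p values from 0.0956 to 0.171.

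Grin2a, the subunit that joins mature receptors, lies on chromosome 16 (9385762 to 9813424, minus strand, ENSMUSG00000059003) and was counted at 6 to 24 reads per library. Its level was 0.408 to 0.672 CPM in Ctrl PMBSF and 0.198 to 0.633 CPM in Ctrl ALBSF, and the groups overlapped. Of the members tested, Grin2a alone was on average higher in Ctrl PMBSF, by a log2 difference of 0.49 ± 0.40 (SE) and an adjusted p of 0.702 with edgeR.

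Grin3a, the early postnatal GluN3 subunit, lies on chromosome 4 (49661611 to 49845847, minus strand, ENSMUSG00000039579). It had 48.0, 44.3, 63.6 and 68.3 CPM in Ctrl PMBSF, against 80.3, 78.6, 95.7 and 116 CPM in Ctrl ALBSF. All whisker pad libraries were below all upper lip libraries. Pools of the same number also went together, since those numbered 3 and 4 were the higher ones in both territories. The log2 difference over the 12 libraries was -0.73 ± 0.23 (SE) with a raw p of 0.00647 and, by edgeR, an adjusted p of 0.168. In the paired fit Grin3a fell by 0.73 ± 0.06 with an adjusted p of 4.44e-05. The ratio of Ctrl PMBSF to Ctrl ALBSF was 0.598, 0.563, 0.665 and 0.588 in the 4 pairs, a narrow range. The paired call held in all 8 alternatives run. Adjusted p values of the paired fits ran from 7.23e-05 to 0.00206 in the 4 that left out 1 pair. In the 4 other settings they ran from 1.25e-20 to 4.92e-05. These values rest on at most 4 pairs and moved widely with the setting, so only the call is read from them. Without the block, Grin3a was called in 3 unpaired alternatives, which were no filter on low counts (adjusted p = 0.0117), a fit of the 2 control groups alone (0.0452) and a fit without embWPC ALBSF 2 (0.0274).

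Grin3b, the GluN3 subunit known from motor neurons, lies on chromosome 10 (79806549 to 79813024, plus strand, ENSMUSG00000035745). It had 0 to 7 counts per library and did not pass the filter on low counts, so it was not tested. The libraries held 6, 1, 7 and 3 counts in Ctrl PMBSF and 3, 7, 4 and 4 counts in Ctrl ALBSF. Its exons share 1059 bases with Tmem259 on the other strand, so these few reads cannot be assigned with certainty.

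**Figure D2:**
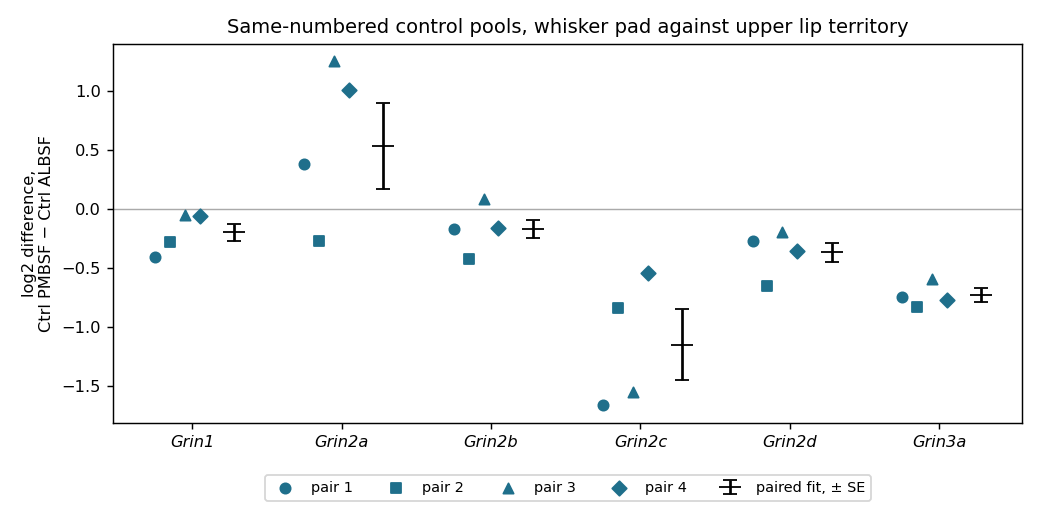
The log2 difference in CPM between Ctrl PMBSF and Ctrl ALBSF pools of the same number for the 6 members tested, with 1 symbol per pair, and the paired edgeR estimate with its SE in black. The 4 pairs of Grin3a lie close together, between -0.83 and -0.59, and those of Grin2a fall on both sides of 0.

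In all, the TMM-scaled CPM of the 2 territories did not overlap for 4 of the 6 members tested, where 8.28% of all genes tested did not overlap. These were Grin1, Grin2c, Grin2d and Grin3a, each lower in Ctrl PMBSF. For Grin1 and Grin2d this rests on the TMM scaling. Ctrl PMBSF 3 and Ctrl ALBSF 3 had library totals of 31947310 and 31850727. In the same order they held 1029 and 862 counts of Grin1, and 767 and 710 of Grin2d. Marker lists also differed between the libraries of the 2 territories. Relay neuron markers summed to less in Ctrl PMBSF than in Ctrl ALBSF in each of the 4 pairs, with 2705, 2598, 2565 and 2905 CPM in Ctrl PMBSF against 2829, 3061, 3243 and 3297 CPM in Ctrl ALBSF. Genes of this list went both ways, since 5 of 14 had a higher value in Ctrl PMBSF, and 4 were called. The sum of habenular neuron markers, at 31.2 to 34.5 CPM in Ctrl PMBSF and 41.2 to 52.2 in Ctrl ALBSF, was lower in each pair too. Of its 6 tested genes, 3 had a higher value in Ctrl PMBSF and 1 was called. The sums of astrocyte and radial glia markers, of oligodendrocyte lineage markers and of erythroid markers were also lower in each pair. Among the astrocyte and radial glia genes, 3 of 14 were higher in Ctrl PMBSF and 0 were called. The oligodendrocyte lineage sum was 377 to 400 CPM in Ctrl PMBSF and 413 to 534 in Ctrl ALBSF, with 5 of 12 genes higher in Ctrl PMBSF and 2 called. The erythroid sum was 744 to 1046 CPM in Ctrl PMBSF and 846 to 1332 in Ctrl ALBSF, with 0 of 6 genes higher and 0 called. Markers of cortical or hippocampal excitatory neurons had 15.4, 16.5, 47.8 and 36.3 CPM in Ctrl PMBSF against 40.3, 27.3, 48.9 and 57.9 CPM in Ctrl ALBSF. Within that list 6 of the 8 tested genes had a higher value in Ctrl PMBSF, and Slc17a7, which did not, averaged 17.1 ± 9.97 CPM in Ctrl PMBSF and 32.9 ± 14.3 CPM in Ctrl ALBSF (SD, n = 4 each). Meningeal markers were higher in Ctrl PMBSF in 3 of the 4 pairs, with 18.0 to 105.5 CPM in Ctrl PMBSF and 21.3 to 22.6 in Ctrl ALBSF, and all 11 genes had a higher fitted value. The part of these markers in the differences of the receptor genes was not tested, and in bulk tissue fewer cells of a type and less RNA per cell cannot be told apart.

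Within the upper lip territory, embWPC ALBSF was set against Ctrl ALBSF to look for an effect of the treatment. The fit called 0 of the 6 members, where 0.0629% of all genes, 11 of 17501, were called by edgeR and 1614 (9.22%) had a raw p under 0.05. Among the members a raw p under 0.05 was found for 2, and DESeq2 and voom called 0. The libraries of the 2 groups overlapped for every member, where 5.74% of genes did not overlap. This comparison and the one between control territories use the same Ctrl ALBSF libraries, so their values are set side by side and not as separate evidence.

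Grin3a had 45.3, 102, 50.7 and 52.8 CPM in embWPC ALBSF, against 80.3, 78.6, 95.7 and 116 CPM in Ctrl ALBSF. In 3 of the 4 embWPC libraries it was below all controls, and embWPC ALBSF 2 lay among them. The log2 difference was -0.56 ± 0.23 (SE) with a raw p of 0.0265 and, by edgeR, an adjusted p of 0.481. Without embWPC ALBSF 2 it was -0.90 with an adjusted p of 0.0907. That library also had the highest relay marker sum of its group, 3234 CPM against 2805 to 3028 in the other 3. The part of this in its Grin3a level was not tested.

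Grin2d had 20.4, 23.9, 20.2 and 22.7 CPM in embWPC ALBSF, against 25.1, 28.7, 24.6 and 23.3 CPM in Ctrl ALBSF. In 3 of the 4 embWPC libraries it was below all controls. The log2 difference was -0.22 ± 0.09 (SE) with a raw p of 0.0300 and, by edgeR, an adjusted p of 0.491. Grin2b had 61.2, 66.3, 81.3 and 61.9 CPM in embWPC ALBSF, against 65.3, 94.1, 84.4 and 80.9 CPM in Ctrl ALBSF. Its log2 difference of -0.26 ± 0.13 had an adjusted p of 0.579.

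Grin2c was uneven in embWPC ALBSF, with 1.07, 1.13, 0.298 and 0.419 CPM, against 0.827 to 1.39 CPM in Ctrl ALBSF. The log2 difference was -0.63 ± 0.39 (SE) with an adjusted p of 0.657 with edgeR. Grin1 had 27.9 to 32.6 CPM in embWPC ALBSF and 29.7 to 35.0 CPM in Ctrl ALBSF, and its log2 difference of -0.06 ± 0.09 was the smallest of the members. Grin2a, at 0.323 to 0.761 CPM in embWPC ALBSF and 0.198 to 0.633 CPM in Ctrl ALBSF, had a log2 difference of 0.15 ± 0.41. The sign of the Grin1 value changed when 1 library, Ctrl ALBSF 2, was left out (0.01), and that of Grin2a without Ctrl ALBSF 4 (-0.07) or embWPC ALBSF 3 (-0.22). Grin3b was counted 1, 6, 0 and 4 times in embWPC ALBSF, and the 0 in embWPC ALBSF 3 allows up to 0.0993 CPM, the worth of 3 counts.

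Sums of markers of other cell types also differed here, though no marker gene was called. Habenular markers summed to 25.7 to 30.5 CPM in embWPC ALBSF and 41.2 to 52.2 CPM in Ctrl ALBSF, meningeal markers to 13.6 to 16.7 and 21.3 to 22.6 CPM, and erythroid markers to 355 to 850 and 846 to 1332 CPM, in the same order of groups. Higher values in embWPC ALBSF were found for 1 of 6, 0 of 11 and 0 of 6 tested genes of these lists, and 0 were called by edgeR. This was so for 0 of 11 GABAergic, 0 of 10 microglia and 1 of 8 cortical or hippocampal genes. For choroid plexus it was 1 of 6, for astrocytes or radial glia 2 of 14 and for relay neurons 4 of 14. For the oligodendrocyte lineage it was 6 of 12 and for endothelial or mural cells 7 of 12. The part of these markers in the values of the receptor genes was not tested.

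**Figure D3:**
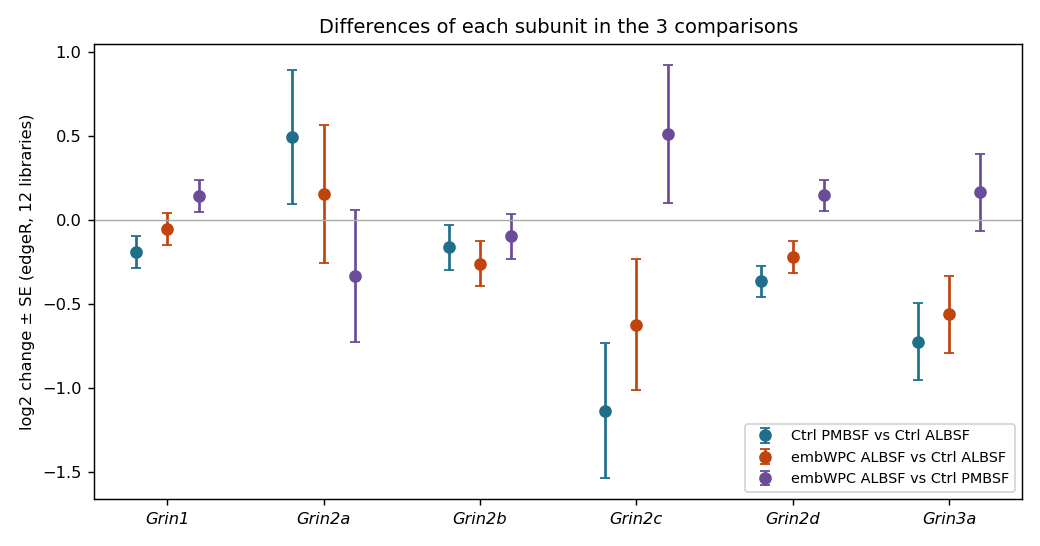
The log2 change and its SE from the edgeR fit of 12 libraries for the 6 members tested in the 3 comparisons, each with 4 libraries against 4. No member passed an adjusted p of 0.05, and Grin2c has the widest errors together with Grin2a.

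The treated upper lip territory was last set against the whisker pad territory of control pups. The fit called 0 of the 6 members, where 0.00571% of all genes, 1 of 17501, was called by edgeR and 1657 (9.47%) had a raw p under 0.05. Among the members this was so for 0, and DESeq2 and voom also called 0. All members overlapped between the groups, where 4.73% of genes did not. Grin3a had 45.3, 102, 50.7 and 52.8 CPM in embWPC ALBSF, against 48.0, 44.3, 63.6 and 68.3 CPM in Ctrl PMBSF. Its log2 difference of 0.16 ± 0.23 (SE) had an adjusted p of 0.856 with edgeR and turned to -0.18 without embWPC ALBSF 2. Grin2d averaged 21.8 ± 1.81 CPM in embWPC ALBSF and 19.7 ± 1.65 CPM in Ctrl PMBSF (SD, n = 4 each), a log2 difference of 0.15 ± 0.09. Grin1 and Grin2c had differences of 0.14 ± 0.09 and 0.51 ± 0.41, and Grin2b and Grin2a of -0.10 ± 0.13 and -0.34 ± 0.39. The adjusted p values of the 6 ran from 0.642 to 0.856. A p that misses the threshold does not show that the levels are alike.

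The makeup of the GluN2 pool was examined as the share of each Grin2 gene in the counts per kb of exon summed over the 4 Grin2 genes. Grin2b and Grin2d made up nearly all of it in every library, at 43.4 to 55.6% and 43.3 to 54.0%. Grin2b took 48.1 ± 4.55% in embWPC ALBSF, 52.2 ± 4.46% in Ctrl PMBSF and 48.6 ± 3.54% in Ctrl ALBSF (SD, n = 4 each). Grin2d took 50.3 ± 4.35%, 46.4 ± 4.36% and 49.5 ± 3.04% in the same groups. The scarce Grin2c took 1.20 ± 0.726% in embWPC ALBSF, 0.862 ± 0.314% in Ctrl PMBSF and 1.55 ± 0.398% in Ctrl ALBSF, and Grin2a 0.449 ± 0.190%, 0.579 ± 0.119% and 0.338 ± 0.154%. The shares depend on the length used. On canonical transcript lengths Grin2b averaged 41.5% and Grin2d 56.0% over the 12 libraries, while without any length Grin2b averaged 75.6% and Grin2d 23.1% of the counts.

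The Grin2 sum per kb was 2.05 ± 0.209 times that of Grin1 in embWPC ALBSF, 2.23 ± 0.255 times in Ctrl PMBSF and 2.33 ± 0.0975 times in Ctrl ALBSF (SD, n = 4 each). Grin3a per kb was 1.77 ± 0.720 times Grin1 in embWPC ALBSF, 1.74 ± 0.309 times in Ctrl PMBSF and 2.54 ± 0.594 times in Ctrl ALBSF. These ratios move with the length as well. On canonical lengths the Grin2 sum was 1.01, 1.08 and 1.15 times Grin1 and Grin3a 1.17, 1.16 and 1.69 times Grin1 in the same order of groups. Without any length the Grin2 sum was 3.05, 3.44 and 3.47 times Grin1. All 18 tests of these 6 quantities in the 3 comparisons were two-sided exact permutation tests of 4 libraries against 4, in which the smallest p possible is 0.0286. Their lowest p was 0.0571, for the Grin2c share and for Grin3a over Grin1 in Ctrl PMBSF against Ctrl ALBSF, and the lowest adjusted p over the 18 was 0.386. The libraries of the groups overlapped in every case. Between control pools of the same number, the shares of Grin2a and Grin2b were higher and those of Grin2c and Grin2d and Grin3a over Grin1 were lower in Ctrl PMBSF in 4 of 4 pairs. The Grin2b share differed by 2.26, 3.88, 4.95 and 3.26 percentage points, and Grin3a over Grin1 by -0.478, -0.596, -0.845 and -1.27. The 4 shares of a library add up to the whole, so the higher Grin2b share and the lower Grin2d share are largely the same observation. The exact sign-flip test of 4 pairs gave p = 0.125 for each of these 5 quantities, which is the smallest it can give, so it cannot pass 0.05.

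**Figure D4:**
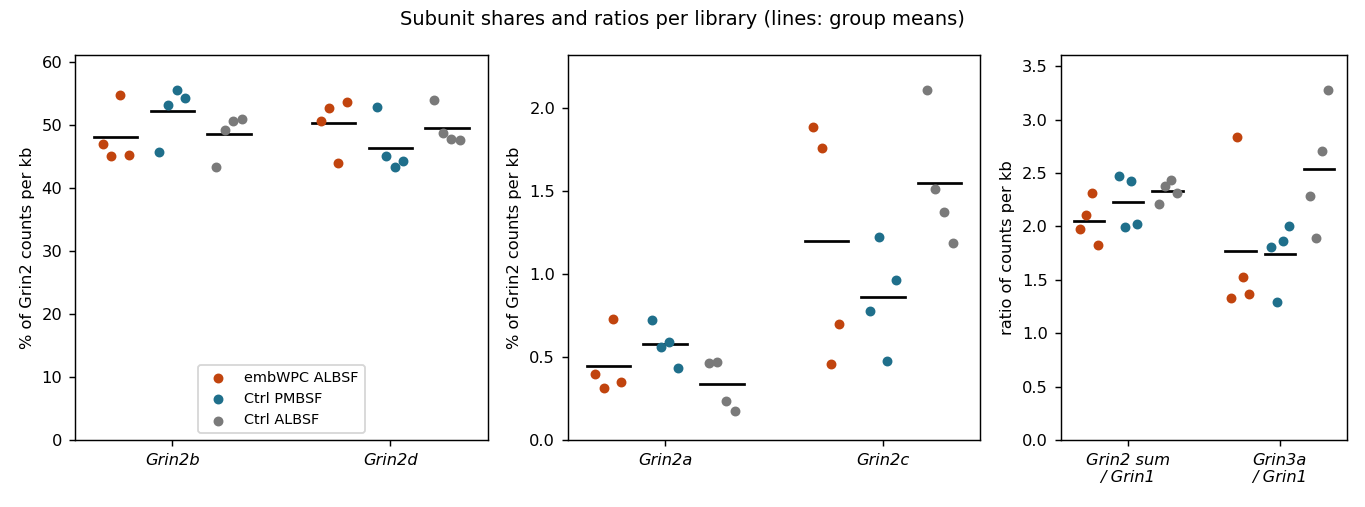
Shares of each Grin2 gene in the Grin2 counts per kb of exon, and the ratios of the Grin2 sum and of Grin3a to Grin1, with 1 point per library and the group mean as a line. Grin2b and Grin2d lie between 43.3 and 55.6% in every library, and Grin3a over Grin1 reaches 2.84 in embWPC ALBSF 2.

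Genes that work with the receptor were examined as 5 lists. Between the control territories 4 of their 107 tested genes (3.74%) were called in the unpaired edgeR fit, where 1.62% of all genes were, and 13 (12.1%) in the paired fit, where 5.04% of all genes were. Nothing particular to the lists was tested. Of 32 genes for scaffolding and trafficking of the receptor, 1 rose in the unpaired fit, Lin7a, a PDZ protein of receptor transport, with 39.9 ± 3.84 CPM in Ctrl PMBSF and 28.5 ± 2.95 CPM in Ctrl ALBSF (SD, n = 4 each, log2 change 0.48 ± 0.11 (SE), adjusted p = 0.0408 with edgeR). In the paired fit 1 rose and 2 fell. Those that fell were Dlgap3, a postsynaptic scaffold protein, by 0.33 ± 0.06, and Dlg1, the scaffold SAP97, by 0.68 ± 0.14. The median log2 difference of the list was -0.12, against 0.0043 over all genes tested.

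Of 37 kinases, phosphatases and calcium signalling genes downstream of the receptor or acting on it, 1 rose in the unpaired fit, Camk2n1, an inhibitor of CaM kinase II. It had 34.2 ± 1.68 CPM in Ctrl PMBSF and 22.5 ± 1.46 CPM in Ctrl ALBSF (SD, n = 4 each), a log2 change of 0.61 ± 0.10 (SE) with an adjusted p of 0.00472 by edgeR. In the paired fit 1 rose and 4 fell. Ptk2b, the calcium-activated tyrosine kinase PYK2 that acts on NMDA receptors through Src, fell by 0.66 ± 0.09 with an adjusted p of 0.00106. Cdk5r1, the activator of Cdk5, fell by 0.33 ± 0.06, and Tiam1, a Rac activator linked to NMDA receptors in spines, fell by 0.47 ± 0.12. The median of the list was -0.13.

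Of 20 genes that supply or clear glycine and D-serine, 18 were tested and 0 were called in the unpaired edgeR fit, with 3 at an unadjusted p under 0.05. In the paired fit Slc1a4, a carrier of serine and other neutral amino acids, fell by 0.24 ± 0.06 (adjusted p = 0.0417). Of 11 tested genes for glutamate release and uptake, Slc1a1, the neuronal glutamate transporter, rose in both fits, with a log2 change of 0.30 ± 0.07 and an adjusted p of 0.0483 in the unpaired one. The vesicular transporter gene Slc17a7, which is also in the list of cortical and hippocampal markers above, fell by 1.02 ± 0.15 in the paired fit (adjusted p = 0.00308). Of 9 AMPA and kainate receptor genes, the kainate receptor gene Grik4 fell in both fits, by 0.98 ± 0.20 in the unpaired one (adjusted p = 0.0189), and Grik1, another kainate receptor gene, fell by 0.68 ± 0.09 in the paired one (adjusted p = 0.000796). The medians of these 3 lists were -0.09, 0.04 and -0.14. In both comparisons with embWPC ALBSF, 0 genes of the 5 lists were called by edgeR, with 15 and 16 of 107 at a raw p under 0.05 (14.0 and 15.0%, where 9.22 and 9.47% of all genes were).

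The genes whose log2 CPM ran most like that of a member over the 12 libraries were listed as a description, out of 12661 genes. The points share groups, pools and library scaling. Grin3a ran most like Vsnl1, a neuronal calcium sensor (Pearson r = 0.926), Ptk2b (0.923) and the transcription factor gene Bach2 (0.917). Grin2d ran most like Nxph1, a ligand of neurexins (0.916), the activin and inhibin subunit gene Inhbb (0.915) and Sec24d, of the vesicle coat of the endoplasmic reticulum (0.913). Grin1 ran most like Samd4b (0.937), the presynaptic adhesion gene Nrxn2 (0.914) and Cadm4 (0.905). For Grin2b they were Iffo2 (0.916), Tnrc6a (0.915) and Chd6 (0.907). The values of the scarce members were lower, at 0.873 for Nostrin, 0.871 for Fndc9 and 0.846 for Bcar1 with Grin2c, and 0.886 for Zc3h13, 0.884 for Tmem241 and 0.866 for Rhpn2 with Grin2a.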

How the data were processed

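The authors deposited raw counts per Ensembl gene for each library. Per the submitters' processing notes and the design text, these came from FastQC 0.11.9, STAR 2.7.9a on GRCm39 (the notes also list mm10), SAMtools 1.15 and featureCounts of Subread 2.0.1 with Ensembl annotation; strand and multi-mapping settings are not given in the sources used here. RNA was selected with poly-T beads from samples with an integrity number above 8, per the labels. Symbols and positions came from GENCODE M39, which held 54749 of the 55359 genes and 99.98381% of the counts.

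Tests were run with edgeR 4.0.16 in R 4.3.3 (quasi-likelihood fit of all 12 libraries, group as the only term, filterByExpr, TMM, Benjamini-Hochberg over 17501 genes, calls at an adjusted p under 0.05). DESeq2 1.42.0 and limma 3.58.1 (voom with quality weights) were alternatives. Both comparisons with Ctrl ALBSF share its 4 libraries, and both with embWPC ALBSF or with Ctrl PMBSF likewise share theirs. The closest pair of libraries had a chi-square per degree of freedom of 12.6, so none was entered more than once. Shares used exon lengths, and the limit given for a count of 0 covers counting error only.

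The labels give each group the replicate numbers 1 to 4. Same-numbered control libraries deviated together from their group means (r = 0.390, 0.198, 0.325 and 0.396 over genes), each matching its own number best, so control pools were also fitted in pairs. Those of embWPC ALBSF did not, at -0.147 to 0.0376 with Ctrl ALBSF and -0.104 to 0.0510 with Ctrl PMBSF.

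Members, gene lists and tests were chosen with earlier results of these data known. Genes named are the members, up to 4 called genes with the smallest p of each list, and for each tested member the 3 genes with the highest correlation at a mean of at least 1 CPM. The sequence of 1 member is not reported here.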

Additional observations from a re-analysis of the deposited data

Results flagged for a closer look

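Of 39 sets of 4 libraries tested for 1 value far from the other 3, 5 were marked, where chance marks about 1 in 20. Ratios among these sets use the same counts as the CPM values, so the marks are not independent of each other. Grin3a stood at 102.3 CPM in embWPC ALBSF 2, against 45.29 to 52.85 CPM in the other embWPC ALBSF libraries. Grin3a over Grin1 per kb was 2.84 in the same library, against 1.331 to 1.532 in the other 3. Grin1 was low in Ctrl PMBSF 1, at 22.42 CPM against 28.73 to 28.8 in the other Ctrl PMBSF libraries. It was high in Ctrl ALBSF 2, at 35.03 CPM against 29.67 to 29.92 in the other Ctrl ALBSF libraries. Ctrl ALBSF 2 also had a choroid plexus and ependymal marker sum of 112 CPM, against 12.6 to 17.0 in the other 3, and its part in the Grin1 level was not tested. Grin2a had 0.7612 CPM in embWPC ALBSF 3, from 23 counts, against 0.323 to 0.369 CPM in the other embWPC ALBSF libraries, from 10 to 13 counts.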

How the results depend on the processing

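With the replicate block, 857 genes and 2 members were called in Ctrl PMBSF against Ctrl ALBSF (284 and 0 without it), 1 gene in embWPC ALBSF against Ctrl ALBSF (11 without it) and 0 in embWPC ALBSF against Ctrl PMBSF (1 without it). In the 2 embWPC comparisons the block called 0 members. Same-numbered libraries did not deviate together in those 2 comparisons (r = -0.147 to 0.051), so the block there joined libraries with no sign of a link. In the shares and ratios it changed no call, and a sign-flip test of 4 pairs cannot go below 0.125.

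Between the control territories, DESeq2 called 507 genes and voom 443, each with 1 member, Grin2d. No filter on low counts called 398 genes and a fit of the 2 groups alone 230, each with 1 member, Grin3a. In embWPC ALBSF against Ctrl ALBSF, DESeq2 called 175 genes, voom 75, no filter 121 and library totals without TMM 7. In embWPC ALBSF against Ctrl PMBSF, DESeq2 called 71 and no filter 72. The paired control fit called 1643 without the filter. The cause of these differences was not tested.

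Leaving out 1 library gave 127 to 282 genes and 0 to 1 members called between the control territories, 1 to 37 genes in embWPC ALBSF against Ctrl ALBSF and 1 to 3 in embWPC ALBSF against Ctrl PMBSF. The count between the control territories fell to 160, 127 and 155 without Ctrl ALBSF 2, 3 and 4 and to 163 without Ctrl PMBSF 2. Without the pair numbered 2, 3 or 4 the paired fit called 536, 378 and 311 genes and 1 member each, and 979 genes and 2 members without pair 1. Signs of member differences turned, leaving out 1 library, within these ranges: against Ctrl ALBSF, -0.093 to 0.0054 for Grin1 and -0.22 to 0.46 for Grin2a; against Ctrl PMBSF, -0.20 to 0.020 for Grin2b and -0.18 to 0.29 for Grin3a. The embWPC ALBSF minus Ctrl ALBSF difference in share ran from -2.78 to 0.418 percentage points for Grin2b and from -0.350 to 2.86 for Grin2d, and the difference from Ctrl PMBSF in Grin3a over Grin1 from -0.334 to 0.169. No other setting turned the sign of a member's difference, share or ratio. Without TMM the median of all genes moved by at most 0.0986 on the log2 scale, and the control territories overlapped for Grin1 and Grin2d. Counts of 6 to 24 for Grin2a, 9 to 42 for Grin2c and 0 to 7 for Grin3b limit what could be seen in these genes.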
